A study of Mus musculus with 7 samples.

Results

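Bcl6, Fas, Mybl1, Jchain, Xbp1, Prdm1, Sdc1, Irf4 and Pou2af1 are 9 genes by which B cells of the germinal centre and their antibody-secreting descendants are recognised, and they were followed here in lymph nodes of mice. A probe belonged to the set where its accession or description named a gene of the set (Jchain also under its older name Igj), which gave 12 probes of the 41174 on the array, and the 9 genes are among 16823 gene symbols. Fas, Jchain and Mybl1 had 2 probes each and the other genes 1. The lymph node that drains the pancreas (PLN) was hybridised in the red dye Cy5 on all 7 dual-dye arrays, and the node it was set against in the green dye Cy3. On 4 arrays the other node was the mesenteric lymph node (MLN, draining the gut), from BALB/c, FVB, NOD and NOD.B10 mice, and on 3 arrays the inguinal lymph node (ILN, draining skin and mammary fat), from FVB, NOD and NOD.B10 mice. All mice were 12-week-old females, and the nodes of 5 animals were pooled for each channel. NOD mice develop autoimmune diabetes. The titles and source names of 2 arrays give NOD.B10, a strain that differs from NOD at the major histocompatibility complex, and the strain entry gives NOD. The labels list no treatment, and whether the PLN pools on both arrays of a strain were the same RNA is not stated. A strain contributed 1 array to each comparison and no array had its dyes swapped, so the p-values measure the spread between pools of different strains, and a dye effect that belongs to a gene stays within its PLN ratio.

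Germinal centres form in lymph node follicles where activated B cells divide, mutate their antibody genes and are selected with the help of follicular T cells. Bcl6, a transcriptional repressor, holds B cells in this state, while Irf4 and Prdm1 (Blimp-1) end it and start the plasma cell programme. Xbp1 then enlarges the secretory apparatus of the plasma cell, and Jchain, a small secreted protein, links IgM and IgA into polymers. In RNA of whole nodes, fewer cells of a type and less RNA per cell cannot be told apart.

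The upstream sequences of 3 of the genes are printed, chosen after their values were seen, and no result on expression rests on them. Jchain stood apart on the FVB array of the ILN. Irf4 had the next highest ratio there after loess, but not in the deposited values. Pou2af1 was below 0 on every array after loess, as was Prdm1, whose sequence is not printed. Each printed sequence is the 250 bases before the annotated start in RefSeq's promoter table for GRCm38.p6, written 5′ to 3′ in the direction of the gene. Jchain lies on the minus strand at chr5:88527898-88528147, Irf4 on the plus strand at chr13:30748983-30749232 and Pou2af1 on the plus strand at chr9:51213440-51213689. Capitals mark a match to any of 4 words that were searched on both strands, and no 2 of these matches overlapped.
Jchain: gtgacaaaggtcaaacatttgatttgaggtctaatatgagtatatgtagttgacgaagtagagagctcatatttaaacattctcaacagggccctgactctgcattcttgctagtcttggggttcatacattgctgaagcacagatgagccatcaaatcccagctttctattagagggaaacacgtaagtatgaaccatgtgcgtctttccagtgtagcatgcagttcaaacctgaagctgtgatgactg
Irf4: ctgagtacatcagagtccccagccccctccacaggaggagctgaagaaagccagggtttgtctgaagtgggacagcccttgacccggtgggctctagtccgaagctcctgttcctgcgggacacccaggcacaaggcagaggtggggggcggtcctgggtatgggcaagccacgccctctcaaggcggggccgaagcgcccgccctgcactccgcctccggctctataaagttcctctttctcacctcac
Pou2af1: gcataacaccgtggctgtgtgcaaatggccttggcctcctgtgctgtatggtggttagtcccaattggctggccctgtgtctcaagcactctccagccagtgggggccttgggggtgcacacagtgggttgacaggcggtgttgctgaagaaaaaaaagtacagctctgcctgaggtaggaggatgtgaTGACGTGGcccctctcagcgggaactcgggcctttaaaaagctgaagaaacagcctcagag
The words were the octamer ATGCAAAT, the Xbp1-type word TGACGTGG, an interferon-response-type word (GAAA, then any 2 bases, then GAAA) and the E-box CAGGTG. They occurred in 1.6%, 0.563%, 2.98% and 17.2% of the 32851 upstream sequences of this length in the table. Pou2af1 held TGACGTGG, beginning 61 bases before the start. Xbp1 and Prdm1 each held CAGGTG, beginning 131 and 87 bases before their starts. None of the 4 words was in the 250 bases of Jchain, Irf4, Fas, Sdc1 or either start of Bcl6, and Mybl1 was not analysed here. These are matches of letters and not measured binding.

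The nodes carried the cells in which the set is used. Of 15 B cell genes, 14 or 15 were well above background in each channel of each array, and of 14 T cell genes 13 or 14. All members but Mybl1 were well above background in both channels of all 7 arrays, and none of their spots was saturated. By array, the median spot intensity of PLN ranged from 68.0 to 105 and that of the other node from 86.1 to 199. The RNA of PLN also carried pancreas: the log2 ratios of 16 genes of acinar cells, which secrete digestive enzymes, had a median of 0.17 in BALB/c, and the medians of the other 6 arrays were 3.09 to 4.94. Of these genes 15 or 16 were well above background in each channel, and their summed signal ranged from 185000 to 870000 for PLN, from 7450 to 192000 for MLN and from 15900 to 40000 for ILN. In BALB/c the acinar sums were 536000 in PLN and 192000 in MLN, at median log2 levels of 15.44 and 15.17. Both BALB/c nodes thus carried acinar RNA, and the low ratio does not mark a PLN with little of it. Arrays were read on 2 scanners, the BALB/c array and the NOD array of the MLN on the earlier.

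Between PLN and MLN none of the 9 genes passed the test. A value is the log2 of PLN over the other node, so that 0 is equality and 1 a doubling, and a gene was called at an adjusted p under 0.05 in limma (Benjamini-Hochberg, two-sided). Called were 0 of 9 members, beside 0 of 29830 genes and unnamed probes (0.0%), and 2 members (Pou2af1 and Xbp1) had an unadjusted p under 0.05, beside 4622 of all tested. The medians of the germinal centre and plasma cell lists were also near 0 (-0.06 over 15 genes and 0.03 over 16). Irf4, Xbp1, Pou2af1 and Prdm1 had the same sign on 4 of 4 arrays, which is 4 of 9 members beside 30.2% of all genes measured on every array.

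**Figure D1:**
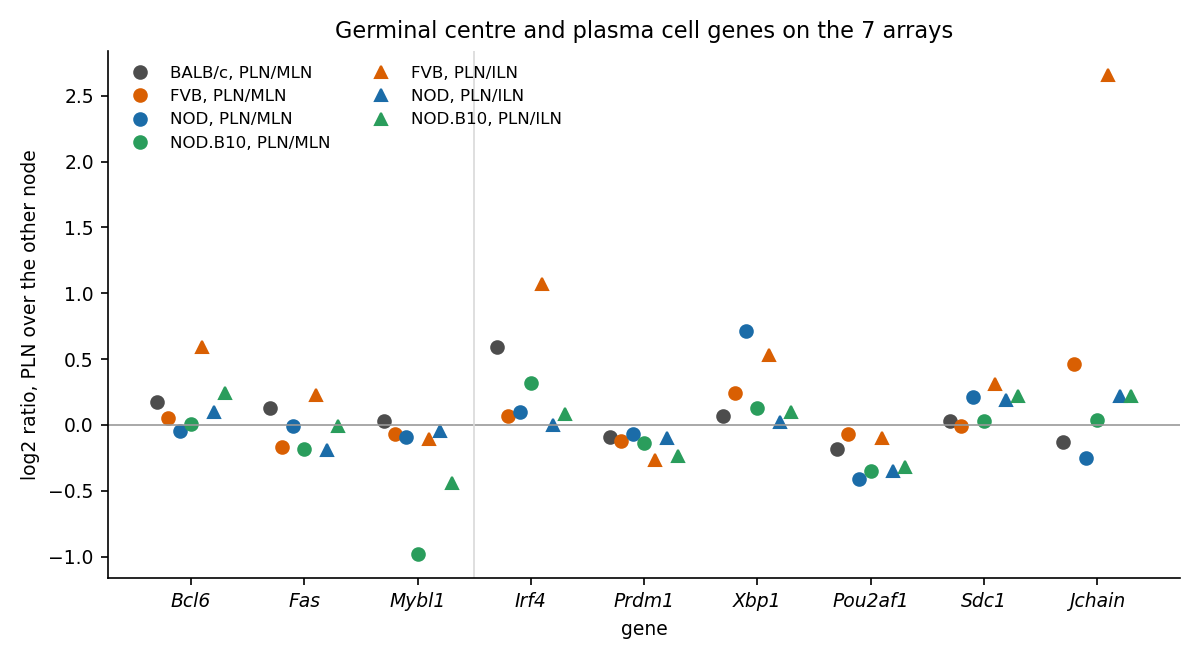
Log2 ratio of PLN over the other node (vertical axis) for each of the 9 genes (horizontal axis, germinal centre genes left of the line), with 1 point per array; circles are MLN arrays, triangles ILN arrays and colours strains. Most points lie within 0.5 of 0, and Jchain on the FVB array of the ILN stands at 2.66.

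Of the germinal centre genes, Bcl6 measured 0.17, 0.05, -0.05 and 0.01 against MLN on the BALB/c, FVB, NOD and NOD.B10 arrays. It measured 0.59, 0.10 and 0.24 against ILN on the FVB, NOD and NOD.B10 arrays. The MLN arrays thus scattered around 0, the ILN arrays were all above it, and the NOD array of the ILN lay within the range of the MLN arrays. The fit gave 0.05 ± 0.08 (SE) for PLN over MLN (adjusted p = 0.782, limma) and 0.31 ± 0.09 for PLN over ILN (adjusted p = 0.116). The normalised log2 level of Bcl6 in PLN was 10.87 to 11.23 on 6 arrays and 10.19 on the NOD.B10 array of the ILN, where the ILN level was also the lowest, at 9.95.

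Fas, the death receptor that germinal centre B cells carry at high level, measured 0.13, -0.17, -0.01 and -0.18 against MLN, in the same strain order. Against ILN it measured 0.23, -0.19 and -0.01. Both groups of arrays held positive and negative values and overlapped. Its fitted ratios were -0.06 ± 0.08 and 0.01 ± 0.09 (SE; adjusted p = 0.708 and 0.956, limma), with 95% intervals of -0.23 to 0.12 and -0.19 to 0.21. The other Fas probe differed from this one by at most 0.29.

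Mybl1 (A-Myb), a transcription factor of dividing germinal centre B cells, was not well above background in PLN on any array. In the other node it was well above background on 5 of 7. By array, 45.9% to 59% of all probes were well above background in PLN and 50.7% to 88.9% in the other node. Its ratios were 0.03, -0.07, -0.09 and -0.98 against MLN and -0.11, -0.05 and -0.44 against ILN. The lowest value of each group was that of NOD.B10. The ratios are therefore not exact values. PLN was also taken, per array, as the higher of its signal and the lowest signal well above background. The mean MLN level, with 3 of 4 arrays well above background, was then 1.2-fold above the PLN mean. For ILN (2 of 3 arrays) it was 1.09-fold. Each mean includes an array where the other node was not well above background, so these figures are not lower limits. The NOD.B10 array carried the MLN value, since the other 3 ratios were -0.09 to 0.03. The tests gave adjusted p = 0.394 and 0.534 (limma), and the 95% intervals (-0.62 to 0.07 and -0.60 to 0.20) included 0. On the NOD.B10 array of the MLN the other Mybl1 probe read -0.22, a gap of 0.76 to the probe used.

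Among the regulators of plasma cells, Irf4 measured 0.59, 0.07, 0.10 and 0.32 against MLN. Against ILN it measured 1.07, -0.0008 and 0.08, in the order FVB, NOD and NOD.B10. The BALB/c array was the highest of the MLN group and the FVB array of the ILN group. The fitted ratios were 0.27 ± 0.16 and 0.38 ± 0.19 (SE; adjusted p = 0.434 and 0.288, limma). Irf4 was dim, at 97.5 to 158 intensity units in PLN over a local background of 50 to 63. In the deposited values it read 1.49 on the BALB/c array and 0.19 on the FVB array of the ILN, so which array is highest changed with the processing.

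Prdm1, the repressor Blimp-1, measured -0.09, -0.12, -0.07 and -0.14 against MLN and -0.27, -0.10 and -0.24 against ILN. It was below 0 on 7 of 7 arrays, but dim, at 81.5 to 146 intensity units in PLN over a local background of 51 to 66. Its fitted ratios were -0.10 ± 0.05 and -0.20 ± 0.05 (SE; adjusted p = 0.324 and 0.0946, limma), a 1.08-fold and a 1.15-fold lower value in PLN that did not pass. When arrays were centred on their medians instead of loess-normalised, the ratio against MLN turned to 0.09.

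Pou2af1 (OCA-B), the coactivator that works with octamer-binding factors in B cells, measured -0.18, -0.07, -0.41 and -0.35 against MLN. Against ILN it measured -0.10, -0.35 and -0.32. It was below 0 on 7 of 7 arrays, near 0 on both FVB arrays and lower on the arrays of NOD and NOD.B10. The fits gave -0.25 ± 0.07 and -0.26 ± 0.08 (SE; adjusted p = 0.198 and 0.138, limma), both about 1.19-fold lower in PLN and neither past the threshold. With median centring the ratio against MLN was 0.86, of the opposite sign. Its log2 level, scaled across arrays, was highest in the BALB/c nodes, at 12.84 in PLN and 13.02 in MLN. The other PLN channels were at 10.96 to 11.84. As scanned, BALB/c was not the highest. PLN gave 5670 intensity units there and 6500 on the FVB array of the MLN, and MLN gave 2310 in BALB/c and 6090 in FVB.

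Xbp1, the transcription factor of the unfolded protein response that plasma cells need, measured 0.07, 0.24, 0.71 and 0.13 against MLN and 0.53, 0.02 and 0.10 against ILN. All 7 values were above 0, and the NOD array of the MLN and the FVB array of the ILN were the highest. The fits gave 0.29 ± 0.11 and 0.21 ± 0.13 (SE; adjusted p = 0.295 and 0.38, limma). Acinar cells are also known to use Xbp1. The acinar medians were 4.92 and 4.94 on those 2 arrays. On the other MLN arrays they were 0.17 in BALB/c, 3.09 in FVB and 4.82 in NOD.B10, and on the other ILN arrays 3.44 in NOD and 4.13 in NOD.B10. In BALB/c both nodes carried acinar RNA, at median log2 levels of 15.44 in PLN and 15.17 in MLN. On the NOD.B10 array of the MLN the Xbp1 ratio was 0.13. The part of acinar cells in the Xbp1 ratios was not tested. Of 15 genes of the secretory endoplasmic reticulum, many of them targets of Xbp1, 0 passed in PLN over MLN and 0 in PLN over ILN (limma). At an unadjusted p under 0.05 were 3 and 4 of them, beside 4622 and 6074 of 29830 tested. Their medians were 0.03 and 0.13.

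Of the products of plasma cells, Sdc1 (CD138), the surface proteoglycan by which plasma cells are sorted, measured 0.03, -0.01, 0.21 and 0.03 against MLN. Against ILN it measured 0.31, 0.19 and 0.22. The NOD array of the MLN lay inside the range of the ILN arrays. Sdc1 was dim, at 126 to 220 intensity units in PLN over a local background of 50 to 65. On the FVB array of the ILN it read 0.31 after loess and 0.9 in the deposited values. The fit gave 0.06 ± 0.05 for PLN over MLN (SE; adjusted p = 0.541, limma). It gave 0.24 ± 0.06 for PLN over ILN, 1.18-fold higher in PLN (adjusted p = 0.0832). Epithelial cells also carry Sdc1. Over 9 epithelial genes the medians were 0.09, 0.14, 0.27 and 0.32 on the MLN arrays and -0.06, -0.03 and 0.01 on the ILN arrays, in the same strain order, and their part was not tested.

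Jchain spread the most. Against MLN it measured -0.13, 0.46, -0.25 and 0.04, and against ILN 2.66, 0.22 and 0.22. The FVB array of the ILN stood apart, and the other 6 arrays lay between -0.25 and 0.46. The other Jchain probe gave 2.63 on that array and differed by at most 0.09 on any array. The fits gave 0.03 ± 0.35 for PLN over MLN (SE; adjusted p = 0.971, limma) and 1.04 ± 0.40 for PLN over ILN (adjusted p = 0.204). Above 0 were 3 of 3 ILN arrays, with a mean of 1.04 ± 1.41 (SD, n = 3), so the spread exceeded the mean.

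Levels by channel place the Jchain difference on the FVB array in the ILN. They are log2 values scaled across arrays, and since each node has its own dye they are open to dye bias. In PLN the level was 12.59 on that array and 14.08 in BALB/c, with the other 5 PLN channels at 11.91 to 12.52. In MLN it was 14.22, 12.06, 12.62 and 12.34 in BALB/c, FVB, NOD and NOD.B10. In ILN it was 9.93 in FVB, 12.21 in NOD and 11.68 in NOD.B10. The ILN pool of FVB was thus the lowest of all channels, while PLN on the same array lay among the other PLN pools. The other probe read 9.08 in this ILN and 10.30 to 11.51 in the other MLN and ILN pools. In PLN that probe read 11.15 in BALB/c, within the 10.23 to 11.91 of the other PLN channels. As scanned, the brighter probe gave 8400 intensity units in PLN and 773 in ILN, over a local background of 64.0 and 51.0.

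**Figure D2:**
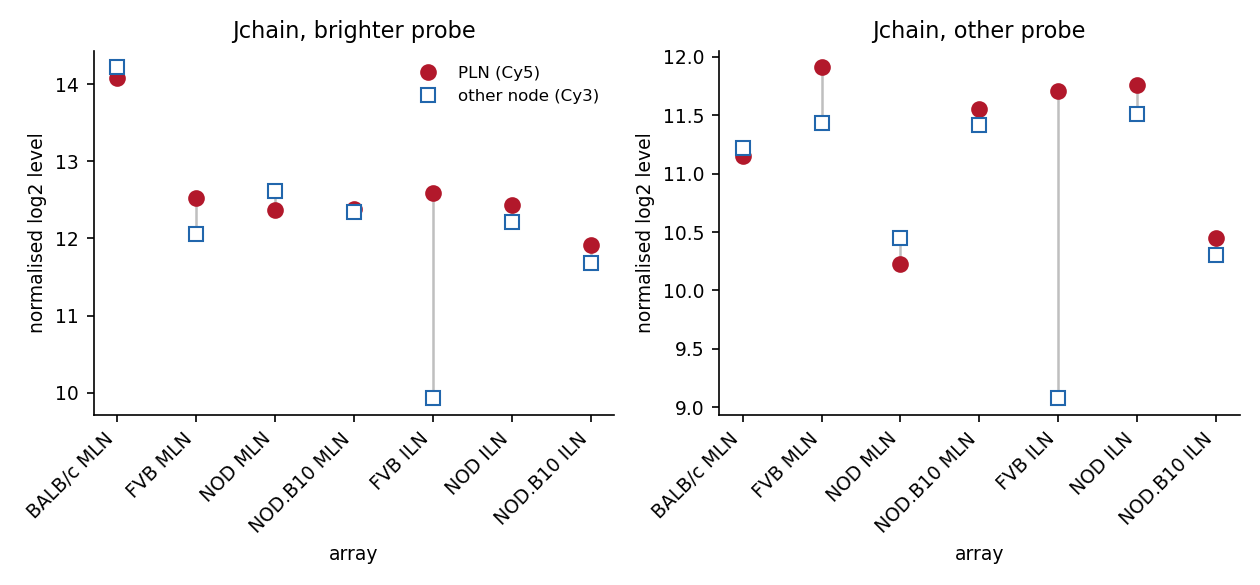
Normalised log2 level of Jchain in PLN (filled circles, Cy5) and in the other node (open squares, Cy3) on each of the 7 arrays (horizontal axis), for the brighter probe on the left and the other probe on the right, whose vertical axes differ. On the FVB array of the ILN the PLN level is among the others and the ILN level is the lowest, 9.93 and 9.08.

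Between PLN and ILN 0 of 9 members were called, beside 593 of 29830 genes and unnamed probes (1.99%, with 1.52% higher in PLN and 0.466% lower). At an unadjusted p under 0.05 were 5 members (Bcl6, Jchain, Pou2af1, Prdm1 and Sdc1), beside 6074 of all tested. The same sign on 3 of 3 arrays was found for 7 of 9 members and for 44.0% of all genes. Between ILN and MLN, which were compared through PLN, 0 of 9 members passed, beside 81 genes (0.272%, with 0.0469% higher in ILN and 0.225% lower), and 1 member (Bcl6) had an unadjusted p under 0.05. In no member were the MLN and ILN arrays apart without overlap, beside 7.3% of all genes. Within a strain, ILN over MLN for Jchain was -2.20 in FVB, -0.47 in NOD and -0.18 in NOD.B10. For Irf4 it was -1.0 in FVB, 0.10 in NOD and 0.24 in NOD.B10.

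The FVB array of the ILN was then set against the NOD and NOD.B10 arrays of the ILN. Of the 9 members, Jchain was called, at 2.44 ± 0.25 higher on the log2 scale (SE; 95% interval 1.86 to 3.02, 5.42-fold, adjusted p = 0.0104, limma), beside 226 of 29796 genes (0.758%, with 0.722% higher and 0.0369% lower). The lone FVB array is assumed to vary like the others, and array and gene were named with earlier values known, so this describes 1 array and not FVB mice. Without the NOD array of the ILN the adjusted p was 0.138, and without the NOD.B10 array 0.0812, with the difference at 2.44 in both. Over 17 alternative settings the difference was 2.43 to 4.10 and the adjusted p 0.00446 to 0.378, and Jchain was called in 12. In the deposited values the difference was 2.61 (adjusted p = 0.378).

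Irf4 was 1.03 ± 0.21 higher in the same contrast (SE; adjusted p = 0.081, limma), with an ILN level of 6.0 on the FVB array and 6.32 to 7.38 in the other MLN and ILN pools. With Agilent's LogRatio the Irf4 difference was 0.20, and without background offset 1.86. The adjusted p was 0.0487 without the BALB/c array and 0.0338 on the later scanner alone, which were calls, and 0.433 without the NOD array of the ILN. Bcl6 was 0.42 ± 0.13 higher (adjusted p = 0.289) and Xbp1 0.47 ± 0.24 (adjusted p = 0.618). Fas differed by 0.33, Pou2af1 by 0.24, Mybl1 by 0.13, Sdc1 by 0.10 and Prdm1 by -0.10, and each of these 95% intervals included 0. The FVB array of the ILN had the highest of the 7 ratios for Bcl6, Fas, Irf4, Jchain and Sdc1, which is 5 of 9 members beside 18.8% of all genes. In the deposited values it was the highest for 3 of 9 (Bcl6, Jchain and Sdc1).

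**Figure D3:**
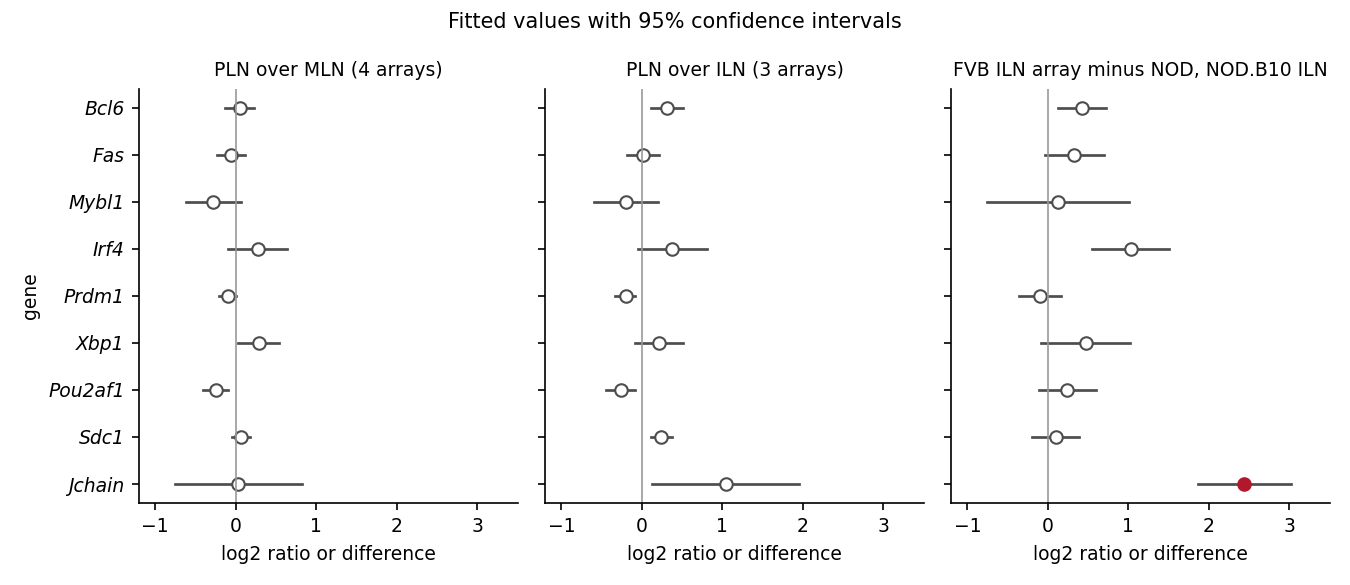
Fitted log2 ratio (points) with its 95% confidence interval (lines) for each gene in PLN over MLN, in PLN over ILN and in the difference of the FVB array of the ILN from the NOD and NOD.B10 arrays; a filled point passed an adjusted p under 0.05. Jchain in the contrast on the right, at 2.44, is the filled point.

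Eaf2, from the plasma cell list, was called beside Jchain on that array. Of 16 plasma cell genes, 2 passed (Jchain and Eaf2) and 0 were lower, with a median difference of 0.39. Over 15 germinal centre genes the median difference was 0.29. The median over all genes tested was 0.019, and the share of all genes called was given with Jchain above. Other lists moved more, with medians of 0.49 over 14 cell cycle genes and 1.21 over 16 acinar genes. Those of 15 B cell genes (-0.05) and 9 white fat genes (-1.87) were below 0. A shift upward was thus not particular to plasma cell genes. The plasma cell and germinal centre lists hold the members, and they were chosen with earlier results known. The plasma cell count was 0 when either the NOD or the NOD.B10 array of the ILN was left out. It was 1 with the FVB array of the MLN left out and 3 with the BALB/c or the NOD array of the MLN left out.

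Eaf2, an elongation factor partner that plasma cells express, measured 0.05, -0.07, -0.31 and -0.33 against MLN and 1.23, -0.17 and -0.0005 against ILN. Its difference was 1.31 ± 0.18 (SE; adjusted p = 0.0246, limma). The call was lost without the FVB array of the MLN (0.0582), the NOD array of the ILN (0.216) or the NOD.B10 array of the ILN (0.0929). It was also lost with offset 0 (0.0932), median centring (0.199), Agilent's LogRatio (0.193) and the deposited values (0.378), and it was made in 10 of 17 alternatives.

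Derl3, which moves misfolded proteins out of the endoplasmic reticulum, measured 2.03 against the FVB ILN, 0.20 against that of NOD and 0.33 against that of NOD.B10, a difference of 1.76 ± 0.35 that did not pass (SE; adjusted p = 0.0766, limma). It also measured 0.94 on the NOD array of the MLN. The highest gene of the plasma cell list reached 2.11 on that array and 1.17 on the FVB array of the MLN, where Jchain was -0.25 and 0.46. The acinar medians of these arrays were 4.92 and 3.09, and on the FVB array of the ILN 4.94. The part of acinar cells in the ratios of secretory genes was not tested. Of the 15 genes of the secretory endoplasmic reticulum, 15 were above 0 on the FVB array of the ILN, 7 on the array of NOD and 9 on that of NOD.B10. The share of all genes above 0 was not taken, and of 15 B cell genes 5, 7 and 7 were above 0 on these arrays. In the contrast 0 of the secretory genes passed, and their median difference was 0.33. Of the B cell genes 0 passed, with a median difference of -0.05. Median centring moved the B cell median to 1.28, the plasma cell median to 1.59, the secretory median to 1.85 and the germinal centre median to 1.08. The B cell medians on the FVB, NOD and NOD.B10 arrays of the ILN were -0.06, -0.01 and -0.0007.

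**Figure D4:**
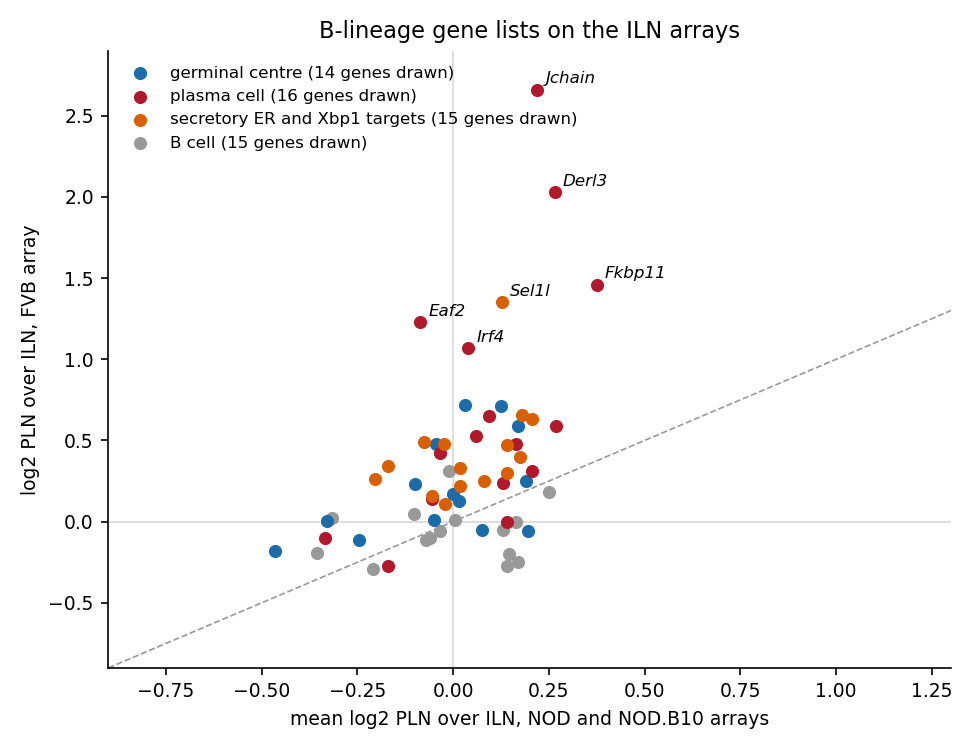
Log2 ratio of PLN over ILN on the FVB array (vertical axis) against the mean of the NOD and NOD.B10 arrays (horizontal axis), with 1 point per gene of 4 lists (1 germinal centre gene is not drawn); the dashed line marks equal values, and genes above 1 on the FVB array are named. Jchain, Derl3, Fkbp11, Sel1l, Eaf2 and Irf4 lie above 1 on the FVB array.

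Markers of other cells also differed between the ILN arrays. The acinar medians were 4.94, 3.44 and 4.13 on the FVB, NOD and NOD.B10 arrays. On the MLN arrays of NOD and NOD.B10 they were 4.92 and 4.82, with Jchain at -0.25 and 0.04. White fat genes had medians of -0.27, 1.34 and 1.60, erythroid genes of -1.04, 0.20 and 0.44 and cell cycle genes of 0.32, -0.23 and -0.17. T cell genes had medians of -0.26, -0.17 and -0.20. In the contrast Icos, a receptor of follicular helper T cells, was 0.79 higher (adjusted p = 0.0405, limma) and Ccnb1, a mitotic cyclin, 1.34 higher (adjusted p = 0.0104). Car3, an enzyme of fat, differed by -2.39 (adjusted p = 0.0309) and Madcam1, an adhesion molecule that marks follicular dendritic cells and venules, differed by -1.31 (adjusted p = 0.0293). All 4 calls were lost when either the NOD or the NOD.B10 array of the ILN was left out. They were also lost with median centring, Agilent's LogRatio and the deposited values. Icos and Ccnb1 were lost as a mean of probes too. Over the alternatives the Ccnb1 difference ranged from 0.43 to 2.78. The part of these other cells in the Jchain ratio was not tested.

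Antibody chains were measured by 82 probes, of which 78 could be tested. Jchain links IgM and IgA, and the probes also cover chains of IgG and light chains. These probes target families of near-identical sequences, so a probe is named by its design and may read related chains. Several of them were designed on the same transcript, so the counts below are of probes and not of separate genes. Among all features, by contrast, a named gene stands as 1 probe. In PLN over MLN 0 were called (limma), with a median of 0.07. There 5 had an unadjusted p under 0.05, beside 4622 of 29830 features tested. In PLN over ILN 9 were higher and 0 lower, with a median of 0.30, beside 1.52% of all features higher. In the FVB contrast 11 were higher and 0 lower, with a median of 0.39, beside 0.722% of all features higher. Without the NOD or the NOD.B10 array of the ILN the FVB contrast had 0. The calls of the FVB contrast were also lost with median centring, Agilent's LogRatio or the deposited values, and most of them with offset 0. With the FVB array of the ILN left out, PLN over ILN had 6 higher and 2 lower and a median of 0.12. The 9 of PLN over ILN became 4 with the NOD.B10 array of the ILN left out, 5 with the FVB array of the MLN left out, 3 with Agilent's LogRatio and 0 with median centring. On the FVB array of the ILN 18 of the 78 probes had a log2 ratio of at least 1, 5 on that of NOD and 5 on that of NOD.B10, and on the MLN arrays 0, 0, 1 and 1 in BALB/c, FVB, NOD and NOD.B10. Of all features, 1.05% reached that ratio on the FVB array of the ILN, 0.413% and 0.382% on the other ILN arrays and 0.0775% to 0.52% on the MLN arrays.

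The probes A_51_P187645, A_51_P509679 and A_51_P180159, designed on a heavy chain variable region transcript, were higher in PLN than in ILN in all 3 strains. A_51_P187645 measured 3.92, 2.71 and 3.29 against ILN in FVB, NOD and NOD.B10, and -0.34, 0.15, -0.50 and -0.20 against MLN. Its ILN and MLN arrays did not overlap. The fit for PLN over ILN gave 3.30 ± 0.20 (SE; 9.88-fold, adjusted p = 0.00026, limma), and 3.13 and 2.83 for the other 2 probes. They passed in 18 of 19 alternatives, the exception being median centring. Jchain did not share this pattern, at 0.22 on both the NOD and the NOD.B10 array of the ILN.

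Of the 2 probes designed on the transcript Ighg, the heavy chain of IgG, A_52_P74106 measured 2.71, -0.84 and -1.34 against ILN in FVB, NOD and NOD.B10. Against MLN it measured -0.10, 0.70, -0.83 and -0.50. The FVB nodes and the NOD and NOD.B10 nodes thus lay on opposite sides of 0. The difference in the contrast was 3.79 ± 0.52 (SE; adjusted p = 0.0252, limma), and its adjusted p was 0.18 when the NOD array of the ILN was left out and 0.128 when that of NOD.B10 was. The other Ighg probe, A_51_P275642, measured 1.49, 0.0018 and 0.03 against ILN in FVB, NOD and NOD.B10, and its difference was 1.47 ± 0.20 (adjusted p = 0.0239). Both calls were lost without either of the other ILN arrays and made in 11 of 17 alternatives. The probes A_51_P155336, A_52_P532769, A_51_P311235 and A_51_P351953, also described as gamma or IgG2a heavy chain, measured 0.39, 1.28, -0.06 and 0.77 on the FVB array of the ILN. A_51_P311235 is among the probes counted as higher in the contrast, at 0.81, though its own ratio on the FVB array was -0.06.

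**Figure D5:**
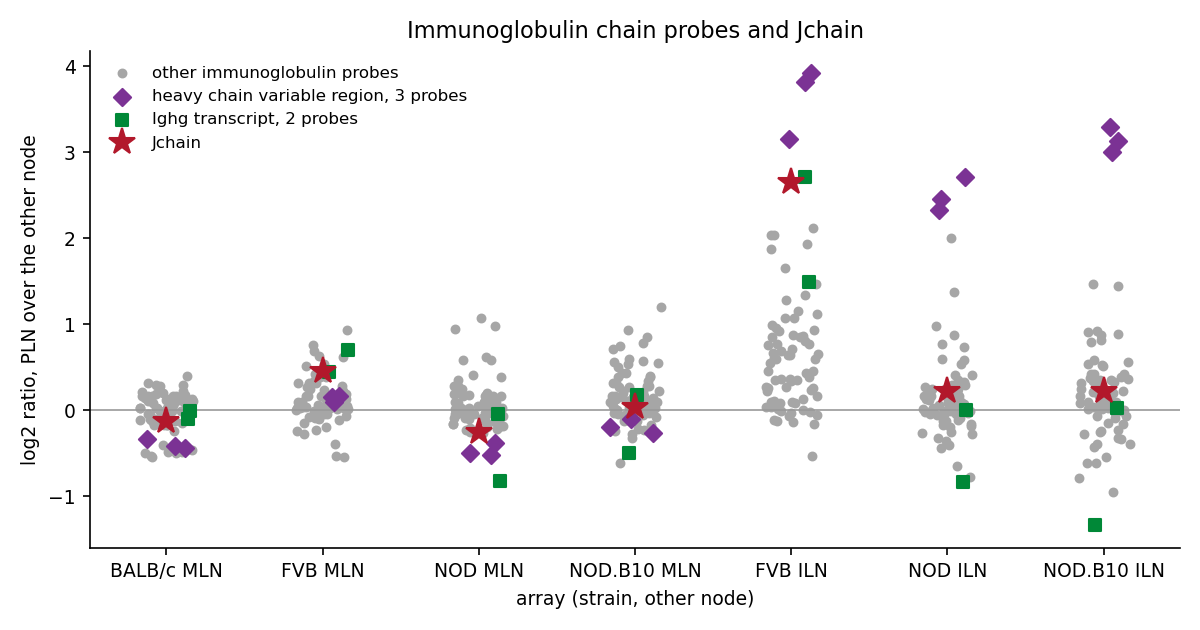
Log2 ratio of PLN over the other node (vertical axis) for 78 antibody chain probes and Jchain (star) on each array (horizontal axis); diamonds are the 3 heavy chain variable region probes, squares the 2 probes of the Ighg transcript, and points are spread sideways to show them. The diamonds lie between 2.33 and 3.92 on the ILN arrays, and Jchain, at 2.66 on the FVB array of the ILN, is at 0.22 on the other ILN arrays.

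Over the 7 arrays, which share the PLN dye and in part strains, the genes whose ratios were most like those of Jchain were Eaf2 (Pearson r = 0.955), Dzip3 (0.95), Zbtb32 (0.92), Pclaf (0.869) and Derl3 (0.849), of 194 well-measured genes with an SD of at least 0.5. Without the FVB array of the ILN their r was 0.308, 0.65, 0.319, 0.677 and -0.199. The likeness rests largely on that array, and these values are a description over 7 points.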

How the data were processed

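Scanner files of 7 arrays, made with Agilent Feature Extraction 8.5.1.1 per the submitters' processing notes, hold spot and background intensity in linear units, per the file headers. LogRatio, a log10 value of red against green, was dye-normalised before deposit, per the file headers. The deposited series table holds log2 values: set against the scanner values, it is the log2 of red over green less 0.0018 to 0.0798 per array. On the FVB array of the MLN it departed from this by up to 0.96. No source used here gives a reason for these constants.

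Intensities went through normexp background correction (offset 50) and within-array loess in limma 3.58.1 (R 4.3.3), and a probe's spots were averaged. Gene names came for 22072 of 41174 probes from accessions in RefSeq's gene table for GRCm38.p6 and for 1382 from the files' descriptions, while 17720 kept their probe name. Probes were kept if, on 3 or more of 7 arrays, either channel was well above background (35817, 87.0%), and the brightest probe stood for a gene. One limma model over all 7 arrays gave PLN over MLN, PLN over ILN and their difference, with 5 residual and 3.84 prior degrees of freedom, and a model with a term for the FVB array of the ILN gave its contrast (4 and 4.2). The scripts were tested on simulated data. The number of arrays limits the precision. Levels were scaled across arrays with Aquantile.

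The members and lists were chosen with earlier results of these data known. Named were all 9 members, up to 3 called genes per list with the largest ratio, the 5 genes most correlated with Jchain, and other genes as examples chosen after their values were seen. Alternatives are in the closing section. The result of 1 gene of the germinal centre list is not reported here.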

Additional observations from a re-analysis of the deposited data

Results flagged for a closer look

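On the FVB array of the ILN the log2 ratio of Jchain exceeded that of the NOD and NOD.B10 arrays by 2.44 (adjusted p = 0.0104, limma). This sets 1 array against 2 and was chosen with earlier values known, and the call was lost when the NOD (0.138) or the NOD.B10 array (0.0812) was left out. In single samples, 27 groups of 4 to 7 values were examined with Dixon's test for a value far from the others, which flags about 1 in 20 groups by chance, and 3 had one. The PLN pool of BALB/c had a Jchain level of 14.08, beside 11.91 to 12.59 in the other 6 PLN channels. The other Jchain probe did not set this pool apart, at 11.15 beside 10.23 to 11.91 in the other PLN channels. As scanned, the probe used gave 9890 intensity units in PLN of BALB/c and 3270 to 11500 in the other PLN channels. The Bcl6 level in PLN was 10.19 on the NOD.B10 array of the ILN and 10.87 to 11.23 on the other 6. The Mybl1 ratio of PLN over MLN was -0.98 on the NOD.B10 array and -0.09 to 0.03 on the other 3. Mybl1 was not well above background in PLN on any array, so these ratios do not measure the size of a change, and the other Mybl1 probe read -0.22 on that array.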

How the results depend on the processing

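In all 3 comparisons between nodes 0 of 9 members passed under each alternative that was run. In the FVB contrast 1 passed, which became 0 with median centring, Agilent's LogRatio or the deposited table, 2 on the later scanner alone, and 0 to 2 when arrays were left out in turn. Jchain was then 4.10 (adjusted p = 0.199, limma), 2.64 (0.193) and 2.61 (0.378) with the same direction. Median centring moved the median of all genes to 0.133 in the FVB contrast and turned Fas, Prdm1 and Pou2af1 to 0.88, 0.09 and 0.86 in PLN over MLN. It turned Bcl6, Fas, Jchain, Sdc1 and Irf4 to 0.66, 0.78, 0.01, 0.34 and 0.26 in ILN over MLN, and Mybl1 and Prdm1 to -0.29 and 0.22 in the FVB contrast. Fas in PLN over ILN was -0.04 with LogRatio, -0.08 in the deposited table, -0.05 as a mean of probes and -0.00047 with array weights. In ILN over MLN, Irf4 was 0.17 with offset 0, 0.28 with LogRatio and 0.28 in the deposited table. There Mybl1 was 0.14 with array weights, Xbp1 -0.03 with a scanner block and -0.03 on the later scanner, and Pou2af1 -0.02 with strain as a block. In the FVB contrast Mybl1 was -0.61, -0.81 and -0.00075 with LogRatio, the deposited table and the mean of probes. Leaving out arrays in turn, Jchain in PLN over MLN ranged from -0.11 to 0.12 and Fas in PLN over ILN from -0.10 to 0.11. In ILN over MLN the ranges were -0.17 to 0.04 (Fas), -0.20 to 0.16 (Mybl1), -0.07 to 0.23 (Xbp1), -0.30 to 0.23 (Irf4) and -0.05 to 0.09 (Pou2af1), and in the FVB contrast -0.06 to 0.32 (Mybl1). The cause of these turns was not tested. Over all genes, the 593 calls in PLN over ILN became 0 with median centring, 59 with offset 0, 69 with LogRatio and 36 in the deposited table, and the 226 of the FVB contrast 0, 85, 7 and 1. Leaving out single arrays gave 39 (NOD.B10 ILN left out) to 742 calls (NOD.B10 MLN left out) in PLN over ILN. In the FVB contrast it gave 1 with the NOD.B10 ILN, 2 with the NOD ILN and 580 with the NOD.B10 MLN left out. Signal near background limits Irf4, Prdm1, Sdc1 and Mybl1.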

Other observations

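The probe A_51_P311235, designed on a predicted IgG2a heavy chain transcript (Igh-1a) and chosen after its values were seen, had levels that did not overlap between NOD or NOD.B10 and the other strains. Its log2 level was 6.4 in PLN and 6.55 in MLN of BALB/c. On the FVB arrays A_51_P311235 read 6.33 in PLN beside 6.39 in ILN, and 6.24 beside 6.27 in MLN. In the NOD and NOD.B10 pools it was 10.84 to 11.79. It was well above background in every NOD and NOD.B10 channel, in the FVB ILN, and in no other FVB or BALB/c channel. The other probe on the same transcript, A_51_P351953, was well above background in every channel, with levels of 6.62 to 7.70 in BALB/c and FVB and 7.93 to 9.75 in NOD and NOD.B10, so the gap was far smaller there.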
